A study of Mus musculus with 8 samples.

Results

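The miR-17/92 and miR-106b/25 clusters were examined as a group of 10 mature miRNAs, selected by name and not by their measured values, in small RNA libraries from the mouse hippocampus. The count table held 8 of the 10 names among its 422 miRNAs, 6 of the 7 from miR-17/92 and 2 of the 3 from miR-106b/25. miR-17-3p and miR-106b-5p are not analysed here. The libraries came from adult male mice aged 12 weeks, with 1 library for each of 4 C57BL/6J (B6) and 4 BTBR T+ Itpr3tf/J (BTBR) mice, and no treatment is named for any mouse. BTBR is an inbred strain used as a model of idiopathic autism and B6 is its control strain, so each group is 1 inbred genotype and the strains differ at many loci.

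The miR-17/92 cluster is cut from a single primary transcript and is a well known target of the transcription factors MYC and E2F. Its miRNAs favour proliferation and survival, in part by repressing the cell cycle inhibitor Cdkn1a and the proapoptotic gene Bcl2l11, and in the brain they are best known from neural progenitors. The miR-106b/25 cluster is a paralog that shares an intron with Mcm7, which encodes a subunit of the replicative helicase. A miRNA recognizes its targets mainly through its seed, the bases from position 2 to 8, so members of different clusters with the same seed share many predicted targets.

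All 10 names, which carry the mouse prefix mmu, matched mature sequences of RefSeq (GRCm38.p6). The sequences of the 8 measured members are shown by seed, with the seed in capitals, because the comparison by seed group rests on them, and miR-92b-3p is added as a relative from another locus.
mmu-miR-17-5p: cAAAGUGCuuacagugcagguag
mmu-miR-20a-5p: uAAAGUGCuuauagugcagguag
mmu-miR-93-5p: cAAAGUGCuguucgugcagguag
mmu-miR-18a-5p: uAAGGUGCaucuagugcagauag
mmu-miR-19a-3p: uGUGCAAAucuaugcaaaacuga
mmu-miR-19b-3p: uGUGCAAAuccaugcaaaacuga
mmu-miR-92a-3p: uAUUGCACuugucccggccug
mmu-miR-25-3p: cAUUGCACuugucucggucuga
mmu-miR-92b-3p: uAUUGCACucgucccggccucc

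Counted from the 5′ end, miR-19a-3p and miR-19b-3p differ in 1 of 23 bases (U11C), and miR-17-5p and miR-20a-5p differ in 2 (C1U and C12U). miR-17-5p and miR-93-5p, from different clusters, share 19 of 23 bases, and miR-92a-3p and miR-25-3p share 18 of the 21 positions compared. How many mismatches the mapping allowed is not given in the sources used here, so a read of one such miRNA with a sequencing error could be counted for its neighbour in sequence.

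In GENCODE annotation of GRCm38, the 6 hairpins of miR-17/92 lie within 836 bases of the plus strand, chr14:115043671-115044506, in an exon of the lincRNA Mir17hg. The 3 hairpins of miR-106b/25 lie within 498 bases of the minus strand, chr5:138165321-138165818. They fall in introns of both protein-coding Mcm7 transcripts that span them, and Mir93 and Mir25 also overlap a retained-intron transcript of that gene. Mature miR-19b-3p and miR-92a-3p are in addition encoded by Mir19b-2 and Mir92-2 of a paralogous cluster on the X chromosome, chrX:52741693-52742567. Reads of these miRNAs therefore cannot be assigned to 1 locus.

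The libraries held 5078301 to 5792967 reads counted on miRNAs in B6 mice and 2247482 to 7904990 in BTBR mice, with BTBR 2 the shallowest. Levels are given in CPM, the reads of a miRNA relative to the TMM-scaled size of its library. BTBR was set against B6 by the quasi-likelihood test of edgeR, adjusted by Benjamini-Hochberg over the 422 miRNAs, and an adjusted p below 0.1, the cutoff of the study, was taken as the threshold. The neuronal miRNAs miR-124-3p, miR-9-5p, miR-9-3p, miR-128-3p and miR-138-5p were all detected, with a summed level of 48559 to 77504 CPM in B6 mice and 57039 to 67071 CPM in BTBR mice. In bulk tissue, fewer cells of a type and less RNA per cell cannot be told apart.

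None of the 8 members passed the threshold between BTBR and B6 mice, and none had an unadjusted p under 0.05 in edgeR's quasi-likelihood test. Their adjusted p lay between 0.601 and 0.999, and none passed by edgeR's exact test, DESeq2 or limma-voom, though DESeq2 gave miR-18a-5p no adjusted p. Over all 422 miRNAs, 7 (1.66%) passed the threshold, 5 higher (1.18%) and 2 lower (0.474%) in BTBR, and 46 (10.9%) had an unadjusted p under 0.05. The log2 fold change of BTBR over B6 was below 0 in 7 members and above 0 in miR-18a-5p, with a median of −0.05, against a median of 0.02 and 49.1% of values below 0 over all miRNAs. In 5 of the 8, miR-19a-3p, miR-20a-5p, miR-19b-3p, miR-92a-3p and miR-25-3p, the log2 fold change was within 0.06 of 0. Scaling by library size alone moved the median of all miRNAs by 0.13 on the log2 scale, and under it these 5 members lay above 0.

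**Figure D1:**
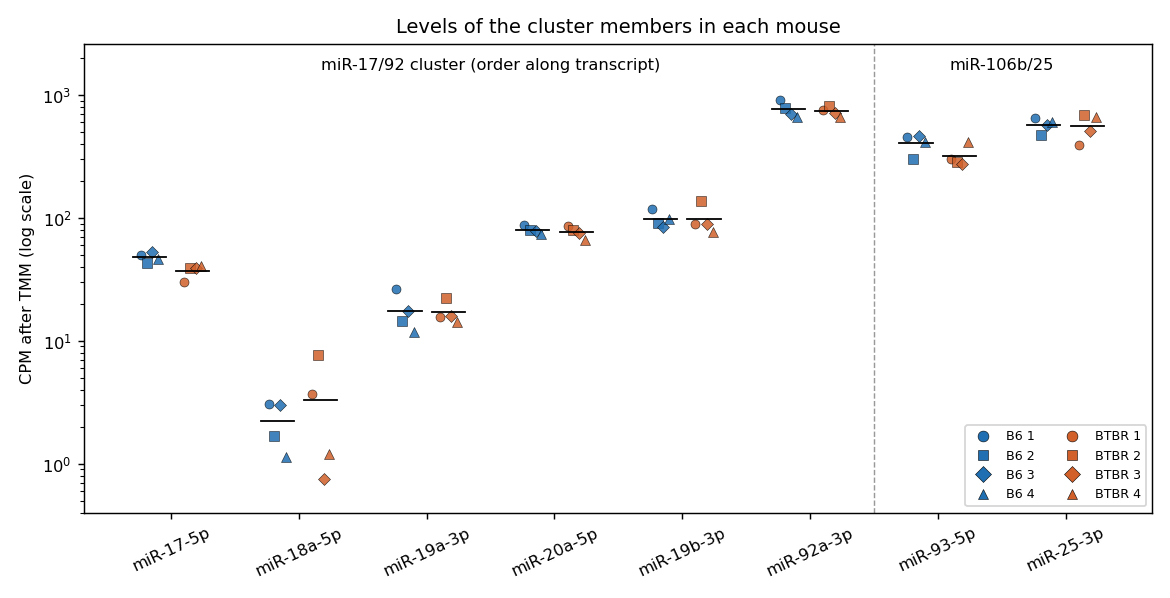
Level of each measured member in each of the 8 mice, in CPM after TMM normalization on a log axis, with B6 in blue and BTBR in orange, a symbol for each replicate number and a black line at the mean of 4 mice. The strains overlap for every member except miR-17-5p, whose BTBR mice lie between 30.2 and 40.4 CPM and B6 mice between 43.2 and 52.7 CPM.

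Among the measured members, the seed AAAGUGC is carried by miR-17-5p and miR-20a-5p of miR-17/92 and by miR-93-5p of miR-106b/25. It is also the seed of miR-106b-5p, not analysed here, and of miR-20b-5p of the X-linked cluster. mmu-miR-17-5p, the first miRNA of its cluster, had 49.7, 43.2, 52.7 and 46.1 CPM in B6 mice 1 to 4 and 30.2, 39.1, 39.1 and 40.4 CPM in BTBR mice 1 to 4. Each BTBR mouse was below each B6 mouse, and BTBR 1 was the lowest of all. The B6 mean was 47.9 ± 4.16 CPM and the BTBR mean 37.2 ± 4.69 CPM (SD, n = 4), and the log2 fold change was −0.37 (standard error 0.22). That is 0.776-fold with a 95% interval of 0.554 to 1.09 (adjusted p = 0.601, edgeR's quasi-likelihood test). Permuting the strain labels over all 70 assignments (exact permutation test, two-sided) gave p = 0.0286, the smallest value it can give, before adjustment for the number of miRNAs. The strains did not overlap in 28 of the 422 miRNAs (6.64%), 14 of them lower in BTBR (3.32%), against 1 of the 8 members (12.5%), and a count of 1 is too small to set against that background. With counts scaled by library size only, the strains overlapped for miR-17-5p as well, with 40.2 to 50.8 CPM in B6 mice and 31.3 to 44.8 CPM in BTBR mice.

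mmu-miR-93-5p, the most abundant measured carrier of this seed, had 451.2, 304, 468 and 411 CPM in B6 mice 1 to 4 and 299.9, 283, 272 and 413 CPM in BTBR mice 1 to 4. BTBR 1, 2 and 3 were below all B6 mice, while BTBR 4 lay within the B6 range. The means were 409 ± 73.7 and 317 ± 65.1 CPM (SD, n = 4), which is 0.776-fold with a 95% interval of 0.557 to 1.08 (adjusted p = 0.601, edgeR's quasi-likelihood test). The exact permutation test gave p = 0.0857. Without BTBR 4 the log2 fold change moved from −0.37 to −0.58, still above the threshold with an adjusted p of 0.477 in edgeR's test.

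mmu-miR-20a-5p, which lies between miR-19a and miR-19b on the same transcript as miR-17, had 87.1, 80.1, 77.7 and 73.9 CPM in B6 mice 1 to 4 and 86.3, 80.4, 75.4 and 65.8 CPM in BTBR mice 1 to 4. The strains covered much the same range. Its means were 79.7 ± 5.56 and 77.0 ± 8.68 CPM (SD, n = 4), or 0.965-fold with a 95% interval of 0.711 to 1.31 (adjusted p = 0.949, edgeR). miR-20a-5p varied least among the members, with a standard deviation within strains of 0.14 on the log2 scale.

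The 3 measured members with AAAGUGC, without miR-20b-5p, together had 588, 427, 598 and 531 CPM in B6 mice 1 to 4 and 416, 402, 386 and 519 CPM in BTBR mice 1 to 4. Their log2 total was 0.31 lower on average in BTBR mice (log2 difference −0.31), with a standard deviation within strains of 0.21, and B6 2 lay below BTBR 4. The difference was −0.16 with library size only and −0.46 without BTBR 4. miR-93-5p made up 70.3% to 79.5% of these reads, so the total mainly follows that miRNA. No test was applied to totals.

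**Figure D2:**
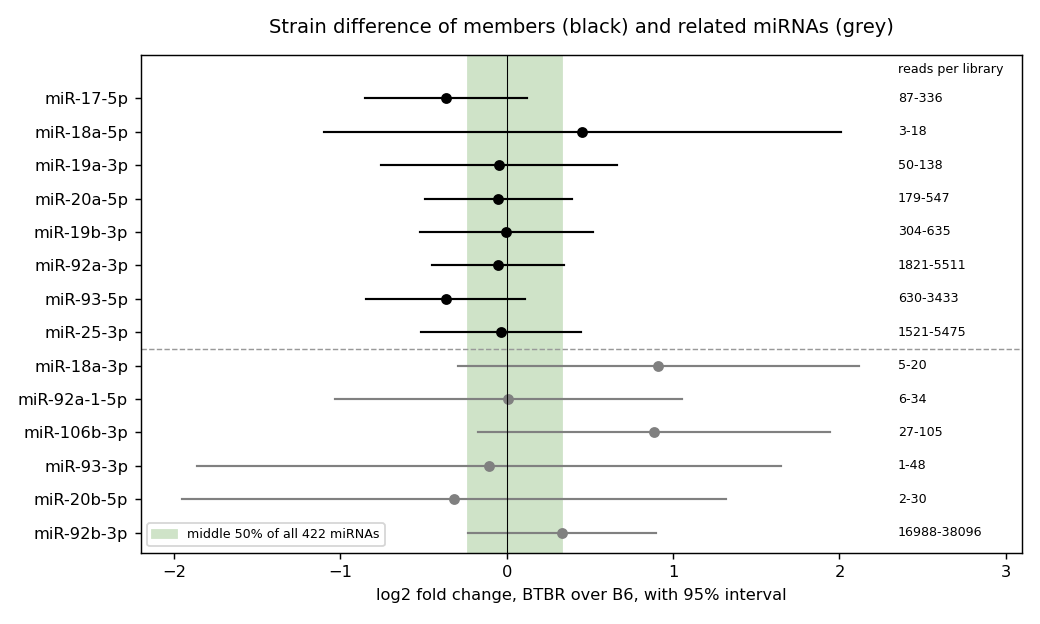
log2 fold change of BTBR over B6 (dot) with its 95% interval (line) from edgeR, for the 8 members in black and 6 related miRNAs in grey. Every interval includes 0, the green band spans the middle 50% of the log2 fold changes of all 422 miRNAs, and the numbers at the right are the lowest and highest read count in the 8 libraries.

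Among the members, the seed AUUGCAC is carried by miR-92a-3p, the last miRNA of miR-17/92, and by miR-25-3p of miR-106b/25. They were the most abundant measured members of their clusters. The relative miR-92b-3p has this seed too. mmu-miR-92a-3p had 908, 782, 704 and 658 CPM in B6 mice 1 to 4 and 748, 817, 711 and 663 CPM in BTBR mice 1 to 4. The lowest mice of both strains were nearly level. Its means were 763 ± 109 and 735 ± 65.1 CPM (SD, n = 4), or 0.963-fold with a 95% interval of 0.732 to 1.27 (adjusted p = 0.944, edgeR), the narrowest interval among the members.

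mmu-miR-25-3p had 649.8, 469, 574 and 603 CPM in B6 mice 1 to 4 and 393, 683, 509 and 659 CPM in BTBR mice 1 to 4. The lowest and the highest value both came from BTBR mice, BTBR 1 and BTBR 2. The means were 574 ± 76.6 and 561 ± 136 CPM, or 0.977-fold with a 95% interval of 0.70 to 1.36 (adjusted p = 0.974, edgeR). The total of both members was 1251 to 1558 CPM in B6 mice and 1140 to 1500.3 CPM in BTBR mice, with a log2 difference of −0.05. This total leaves out miR-92b-3p, which held 75.2% to 86.4% of the AUUGCAC reads measured. The log2 fold change of miR-92b-3p was 0.33 with all mice and 0.0013 without BTBR 2.

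The seed GUGCAAA belongs to miR-19a-3p and miR-19b-3p, which are encoded on either side of miR-20a. mmu-miR-19b-3p had 117, 91.7, 84.8 and 97.1 CPM in B6 mice 1 to 4 and 88.6, 136, 89.9 and 76.4 CPM in BTBR mice 1 to 4, with BTBR 2 the highest. Its means were 97.7 ± 14.1 and 97.8 ± 26.5 CPM (SD, n = 4), or 0.999-fold with a 95% interval of 0.696 to 1.43 (adjusted p = 0.999, edgeR). mmu-miR-19a-3p had 26.5, 14.4, 17.6 and 11.7 CPM in B6 mice 1 to 4 and 15.6, 22.4, 16.03 and 14.3 CPM in BTBR mice 1 to 4. Every BTBR mouse lay inside the B6 range, and the ratio was 0.969-fold with a wider 95% interval of 0.592 to 1.59 (adjusted p = 0.974, edgeR). miR-19b-3p took 81.6% to 89.3% of the reads with this seed.

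mmu-miR-18a-5p, with the seed AAGGUGC, was the rarest member. It had 16, 10, 15 and 5 reads in B6 mice 1 to 4 and 18, 17, 3 and 10 reads in BTBR mice 1 to 4. At this depth counting error alone is large, and the 3 reads of BTBR 3 have an exact 95% Poisson interval of 0.619 to 8.77 reads. Intervals of this kind cover counting error only, since the reads carry no molecular identifiers. The standard deviation of its CPM was 44.0% of the mean in B6 mice and 94.9% in BTBR mice. Counting error alone gives 32.8% and 37.0%, so the spread in BTBR mice was larger than counting error gives. The means were 2.22 ± 0.979 and 3.32 ± 3.15 CPM (SD, n = 4), or 1.37-fold (adjusted p = 0.837, edgeR), which is 0.46 on the log2 scale with a standard error of 0.71. With the library of BTBR 2 left out, which had 7.63 CPM, the log2 value was −0.27. A difference between 0.467-fold and 4.02-fold was inside the 95% interval.

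By cluster, the 6 miRNAs of miR-17/92 summed to 1192, 1013, 939 and 888 CPM in B6 mice 1 to 4 and to 972, 1103, 932 and 861 CPM in BTBR mice 1 to 4. The strains overlapped, with a log2 difference of −0.06 against a standard deviation within strains of 0.17, and with library size only the difference was 0.099. miR-93-5p and miR-25-3p of miR-106b/25 summed to 1101, 773, 1042 and 1014 CPM in B6 mice and to 693, 966, 781 and 1072 CPM in BTBR mice. Here the log2 difference was −0.17 against a standard deviation of 0.26. It was −0.33 without BTBR 4, −0.06 without BTBR 1 and −0.016 with library size only. Together these 8 miRNAs differed by −0.11 on the log2 scale and took 0.166% to 0.210% of the reads of a library.

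The levels of the miR-17/92 members spanned a wide range, although reads of miR-92a-3p may also come from the X-linked cluster. miR-92a-3p had 107 to 946 times the reads of miR-18a-5p in the same library, with a median of 381. The order miR-92a-3p, miR-25-3p, miR-93-5p, miR-19b-3p, miR-20a-5p, miR-17-5p, miR-19a-3p and miR-18a-5p held in all 8 libraries. Some neighbours in this order were close, since the ratio of miR-92a-3p to miR-25-3p was as low as 1.01 and that of miR-19b-3p to miR-20a-5p as low as 1.03. Read counts of different miRNAs also depend on how well each ligates to the adapters, so these are ratios of reads and not of molecules.

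**Figure D3:**
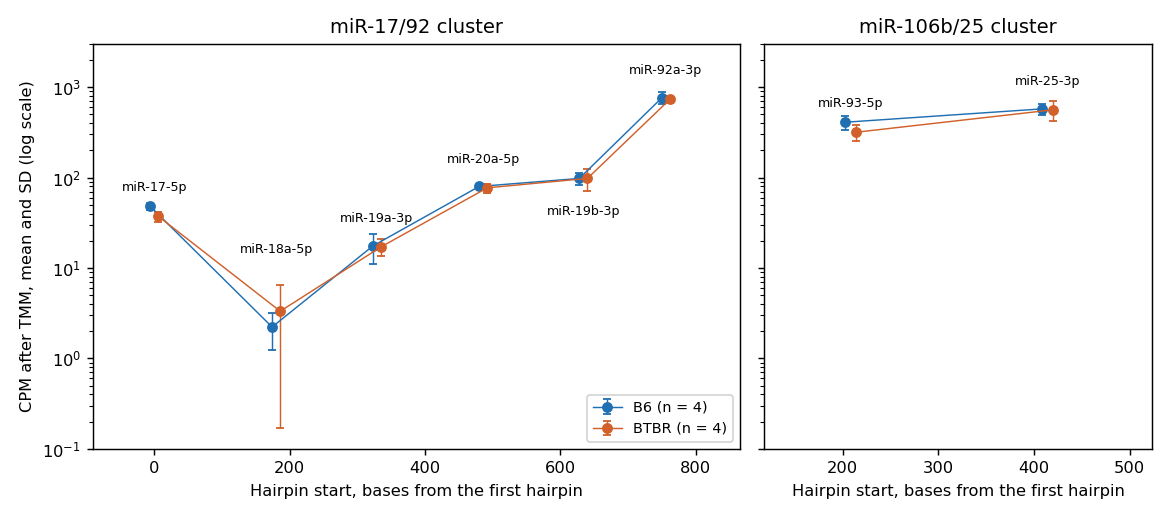
Mean level of each measured member with its SD over 4 mice, in CPM on a log axis, against the start of its hairpin in bases from the first hairpin of the cluster (strains are shifted sideways by a few bases to be seen apart). In miR-17/92 the lowest point in both strains is miR-18a-5p and the highest is miR-92a-3p.

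The composition of the clusters was compared through the ratio of neighbouring members within a library, which needs no normalization. Of 8 ratios planned, 6 could be formed without miR-17-3p and miR-106b-5p, and none passed the threshold in a two-sided exact permutation test (adjusted p = 0.943 for each, Benjamini-Hochberg over 6 ratios). With 4 mice a strain, 1 fully separated ratio alone could reach an adjusted p of only 0.171 in this exact test, so the test could not have called a single ratio, and the values are given as a description. The smallest unadjusted p was 0.2, for miR-93-5p to miR-25-3p. That ratio was 0.694, 0.648, 0.815 and 0.681 in B6 mice 1 to 4 and 0.764, 0.414, 0.534 and 0.627 in BTBR mice 1 to 4. BTBR 2, 3 and 4 lay below all B6 mice and BTBR 1 did not, and the mean log2 ratio differed by −0.31 with a standard deviation within strains of 0.28. It was −0.45 without BTBR 1 and −0.16 without BTBR 2.

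The ratios that involve miR-18a-5p varied most. That of miR-17-5p to miR-18a-5p was between 16.2 and 41.0 in B6 mice and between 5.12 and 52.0 in BTBR mice, with a log2 difference of −0.51 against a standard deviation within strains of 1.21. The log2 difference was 0.13 for miR-18a-5p to miR-19a-3p, with a standard deviation of 0.97, and 0.066 for miR-19a-3p to miR-20a-5p, with a standard deviation of 0.35.

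The ratio of miR-19b-3p to miR-92a-3p was between 0.117 and 0.147 in B6 and between 0.115 and 0.167 in BTBR mice, a log2 difference of 0.02. The ratio of miR-20a-5p to miR-19b-3p was between 0.742 and 0.917 in B6 and between 0.589 and 0.974 in BTBR mice, a log2 difference of −0.03. In both ratios BTBR 2 was the extreme mouse, with the highest share of miR-19b-3p. miR-92a-3p took 74.1% to 77.2% of the miR-17/92 reads in the 8 libraries.

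**Figure D4:**
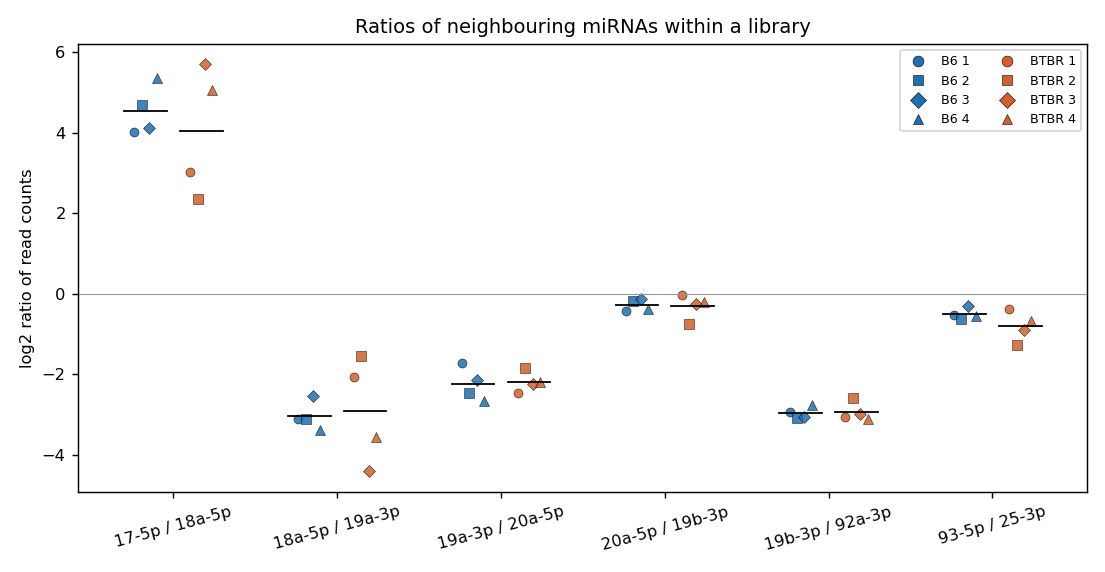
log2 ratio of the read counts of neighbouring members in each of the 8 libraries, with B6 in blue, BTBR in orange, a symbol for each replicate number and a black line at the mean of 4 mice. The strains overlap in all 6 ratios, and the points are most spread where miR-18a-5p, with 3 to 18 reads, enters the ratio.

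Among relatives of the clusters, 6 of 21 listed miRNAs were in the table, 4 of 10 other arms of the same hairpins, 1 of 8 products of the paralogous X-linked cluster and 1 of 3 relatives by seed elsewhere in the genome. None passed the threshold (adjusted p 0.543 to 0.996, edgeR), none had an unadjusted p under 0.05, and in none were the strains apart. miR-92b-3p, encoded on chromosome 3, had a mean of 4815 ± 947 CPM in B6 mice and of 6060 ± 2352 CPM in BTBR mice (SD, n = 4). It held 75.2% to 86.4% of the reads of the 3 AUUGCAC miRNAs measured, and thus exceeded miR-92a-3p and miR-25-3p together in every library. BTBR 2 had 9569 CPM and the other BTBR mice 4583 to 5176 CPM, and without BTBR 2 its log2 fold change dropped from 0.33 to 0.0013.

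miR-106b-3p, the other arm of the Mir106b hairpin, was the only product of that hairpin measured. It had 6.52, 9.54, 7.27 and 10.8 CPM in B6 mice 1 to 4 and 5.55, 33.2, 13.02 and 12.6 CPM in BTBR mice 1 to 4. The BTBR mean rests on BTBR 2, without which the log2 fold change was 0.26 in place of 0.89. miR-93-3p had 15 to 20 reads in each B6 library but 48, 1, 1 and 17 reads in BTBR mice 1 to 4. Its guide arm miR-93-5p exceeded it 95.6-fold to 123.7-fold in B6 mice, and 30.4-fold, 630-fold, 1086-fold and 202-fold in BTBR mice 1 to 4. BTBR 1 lay below the B6 range and the other BTBR mice above it, where BTBR 2 and BTBR 3 had a single read of miR-93-3p. Without BTBR 1 the log2 fold change of miR-93-3p moved from −0.11 to −1.69 (adjusted p = 0.269, edgeR), and with all mice it was −1.09 in limma-voom and −0.94 with the replicate block.

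miR-18a-3p, the other arm of Mir18, had 9, 14, 5 and 7 reads in B6 mice 1 to 4 and 14, 14, 7 and 20 reads in BTBR mice 1 to 4. The means were 1.66 ± 0.548 and 3.33 ± 2.02 CPM (SD, n = 4), or 1.88-fold with a 95% interval of 0.815 to 4.34 (adjusted p = 0.601, edgeR). The strains overlapped, and BTBR 2 was the highest, without which the log2 value was 0.46 in place of 0.91. The arms of Mir18 were almost level, with 0.429 to 3 reads of miR-18a-5p for each read of miR-18a-3p, whereas miR-92a-3p exceeded miR-92a-1-5p 121-fold to 473-fold. miR-20b-5p, the AAAGUGC miRNA of the X-linked cluster, had only 2 to 30 reads per library, with means of 2.74 ± 2.02 in B6 mice and 2.46 ± 2.38 CPM in BTBR mice. BTBR 2, the shallowest library, had the highest level of 3 of the 8 members and of 7 of the 14 miRNAs described. The share over all 422 miRNAs was not counted, so this is not read as particular to these miRNAs. The part of the depth of BTBR 2 in these levels was not tested.

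Red blood cells also contain miR-92a-3p, miR-25-3p and miR-93-5p in high amounts. The 5 red blood cell markers (miR-451a, miR-144-3p, miR-144-5p, and miR-486a-5p and miR-486b-5p, whose counts are identical and entered the sum once) were all measured and summed to 303 to 853 CPM in B6 mice and 531 to 1371 CPM in BTBR mice, highest in BTBR 2. The log2 fold changes of all 5 names lay above 0, from 0.87 to 1.38 with a median of 1.19, in which the identical miR-486a-5p and miR-486b-5p both count. Of the 5 names 1, miR-451a, passed the threshold, where 1.18% of all miRNAs passed it as higher in BTBR. BTBR 2 was the highest of the 8 libraries for miR-25-3p but not for miR-92a-3p or miR-93-5p. Among the BTBR mice alone, BTBR 2 was the highest for miR-25-3p and miR-92a-3p, and BTBR 4 for miR-93-5p. The myeloid markers (2 of 3 measured) summed to 46.0 to 61.4 CPM in B6 mice and 41.7 to 69.1 CPM in BTBR mice, and the endothelial markers (2 of 2) to 2719 to 3365 CPM in B6 mice and 1740 to 3182 CPM in BTBR mice. The oligodendrocyte markers (2 of 2) summed to 2208 to 4221 CPM in B6 mice and 2235 to 2868 CPM in BTBR mice. The choroid plexus markers (7 of 7) summed to 5165 to 39469 CPM in B6 mice, highest in B6 1, and 5163 to 9450 CPM in BTBR mice. Their median log2 fold change was −1.30, with 6 of 7 below 0, from −3.60 for miR-1298-5p to −0.43 for miR-34b-3p, and miR-211-5p at 0.91. B6 1 was also the highest mouse for 3 members, miR-19a-3p, miR-20a-5p and miR-92a-3p. None of the markers other than miR-451a passed the threshold, and the part of these cell types in the members' levels was not tested.

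For each cluster the miRNAs that kept the steadiest ratio to its total were sought, by the standard deviation of the log2 ratio over the 8 libraries. For miR-17/92 these were miR-1843a-3p (0.15), miR-125b-5p (0.19) and miR-1198-5p (0.20), against a median of 0.50 over the 416 other miRNAs. For miR-106b/25 they were miR-98-5p (0.10), let-7a-5p (0.11) and let-7f-5p (0.15), against a median of 0.56 over 420 miRNAs. miR-98-5p had between 4.92 and 6.17 reads for each read of miR-93-5p and miR-25-3p. The totals of the clusters had a standard deviation of 0.29 against each other and a ratio of miR-17/92 to miR-106b/25 between 0.804 and 1.40. Both medians include miRNAs with few reads, whose ratios counting error spreads more. A value below them was therefore not read as a sign that miRNAs vary together. The measure was given no test.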

How the data were processed

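Small RNA libraries were made with the TruSeq Small RNA kit from hippocampal RNA of single mice and sequenced by the authors. They removed adapters, mapped reads to GRCm38 with sRNAbench (Bowtie), assigned reads lying within miRBase v21 coordinates, and deposited whole-number counts for 422 miRNAs, without normalization. The smallest count in the table was 1. Quality was checked with FastQC 0.11.2, per the submitters' processing notes.

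From these counts, edgeR 4.0.16 in R 4.3.3 was used for TMM normalization, dispersion estimates and the quasi-likelihood test, without covariates and without a filter on low counts. The study's methods name edgeR and TMM but not the test. The standard error of a log2 fold change was its size divided by the square root of the F statistic, and 95% intervals of fold changes came from the t distribution with the total degrees of freedom. Exact permutation tests (scipy 1.17.1) on log2(CPM + 0.5) or on log2 ratios were two-sided. Groups came from the sample titles, in which WT libraries have the genotype C57BL/6J. The steps were checked on simulated counts.

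The text names all members, the relatives and markers on the lists, and for each cluster the 3 miRNAs of steadiest ratio. Members, lists and tests were chosen with earlier results of these data known, and some red blood cell and choroid plexus markers are among the miRNAs the study singled out in these libraries. Alternatives were edgeR's exact test, DESeq2 1.42.0, limma-voom (limma 3.58.1), other normalizations, count filters, robust dispersions, a replicate block, a threshold of 0.05, a pseudocount in ratios, and each mouse left out. miR-17-3p and miR-106b-5p were not analysed here, which left 6 of 8 planned ratios. The reads carry no molecular identifiers, so Poisson intervals cover counting error only. The depth of each library limits the rare members most: 3 reads, the floor used, are 0.361 CPM in the deepest and 1.35 CPM in the shallowest library.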

Additional observations from a re-analysis of the deposited data

Results flagged for a closer look

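In 5 of 54 groups of 4 mice examined, 1 mouse stood apart from the other 3 by Dixon's test, and about 5% of groups do so by chance. The groups share miRNAs and mice and are not independent. miR-17-5p was low in BTBR 1, at 30.2 CPM, where the other BTBR mice had 39.1 to 40.4 CPM. miR-20b-5p was high in B6 1, at 5.76 CPM, and miR-92b-3p was high in BTBR 2, at 9569 CPM. The total of miR-19a-3p and miR-19b-3p was high in B6 1, at 143.9 CPM, against 102 to 109 CPM in the other B6 mice. The total of miR-92a-3p and miR-25-3p was also high in B6 1, at 1558 CPM, against 1251 to 1278 CPM. Without BTBR 1 the log2 fold change of miR-17-5p was −0.28 in place of −0.37.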

How the results depend on the processing

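No member passed the threshold under any of the 18 alternatives in which it could be fitted, or at 0.05, and over 143 such fits the smallest adjusted p was 0.334 (miR-93-5p without B6 2). DESeq2 gave no adjusted p for the rarest miRNAs, among them miR-18a-5p. miR-17-5p stayed between −0.47 and −0.21 on the log2 scale and miR-93-5p between −0.58 and −0.19. No ratio of neighbours passed under any alternative, but 1 ratio alone could not have passed in this design, so this says nothing of stability. The count of all miRNAs past the threshold was 7 and moved to 16 with edgeR's exact test, 21 with DESeq2, 4 with library size only, 4 at a threshold of 0.05 and 3 with the replicate block, and lay between 3 (without BTBR 3 or BTBR 4) and 13 (without B6 2) with each mouse left out, with 4 without BTBR 1.

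The signs of values near 0 were not stable. With library size only, the log2 fold change was 0.11 for miR-19a-3p, 0.091 for miR-20a-5p, 0.14 for miR-19b-3p, 0.083 for miR-92a-3p, 0.13 for miR-25-3p and 0.028 for miR-93-3p. With upper quartile scaling it was 0.018 for miR-19a-3p, 0.051 for miR-19b-3p, 0.0027 for miR-92a-3p and 0.020 for miR-25-3p. With filters, miR-19b-3p was at 0.0044 (filterByExpr) and 0.039 (at least 10 counts in every library), and miR-25-3p at 0.00082 under the latter. With limma-voom miR-18a-5p was at −0.045 and miR-92a-1-5p at −0.087. With the replicate block miR-19a-3p was at 0.0069 and miR-92a-1-5p at −0.077. With each mouse left out, values that changed sign ranged from −0.27 to 0.79 for miR-18a-5p, −0.23 to 0.15 for miR-19a-3p, −0.23 to 0.043 for miR-19b-3p, −0.19 to 0.10 for miR-25-3p, −0.27 to 0.28 for miR-92a-1-5p, −1.69 to 0.27 for miR-93-3p and −1.07 to 0.26 for miR-20b-5p. The log2 differences of ratios ranged from −1.06 to 0.054 for miR-17-5p to miR-18a-5p, −0.32 to 0.63 for miR-18a-5p to miR-19a-3p, −0.071 to 0.24 for miR-19a-3p to miR-20a-5p, −0.13 to 0.12 for miR-20a-5p to miR-19b-3p, −0.095 to 0.092 for miR-19b-3p to miR-92a-3p and −0.45 to −0.16 for miR-93-5p to miR-25-3p. For the untested totals, the log2 difference with library size only was 0.099 for miR-17/92, −0.016 for miR-106b/25, 0.13 for the miR-19 seed, 0.11 for the AUUGCAC seed and 0.046 for both clusters, and with each mouse left out it lay between −0.15 and −0.023 for miR-17/92 (the lowest without B6 4), −0.33 and −0.064 for miR-106b/25, −0.46 and −0.26 for AAAGUGC, −0.22 and 0.021 for the miR-19 seed, −0.15 and 0.012 for AUUGCAC and −0.19 and −0.062 for both clusters. The cause was not tested. The totals by seed hold measured cluster members only, without miR-92b-3p or miR-20b-5p.

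Deviations of mice of the same replicate number were weakly correlated across miRNAs (0.052, −0.069, −0.15 and −0.15). These values show no pairing of mice by number, but they were not tested and are too few to exclude it. B6 1 was the only mouse of the 8 that correlated best with the mouse of its own number. The block and the exact sign-flip test of ratios within replicate numbers, which cannot go below p = 0.125, changed no other call. The number of mice, their spread within a strain and, for miR-18a-5p, the read depth as well limit what could be detected.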
